A study of Rattus norvegicus with 2 samples.

Results

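The genes described here are the nuclear receptors Ppara, Rxra and Rxrg and the fuel-switch genes Pdk2, Pdk4, Acot1, Acot2, Ucp2 and Ucp3. Their members were every probe set whose platform annotation gives 1 of these 9 symbols alone, which came to 15 of the 7006 probe sets with a single symbol, or 9 of 4736 genes. One further probe set carries both Acot1 and Acot2 and is given separately. The samples were hearts of male rats of the Dahl salt-sensitive strain, which is inbred and becomes hypertensive when its diet is salty. Both groups were 17 weeks old. The high-salt group, which its label describes as having chronic heart failure, was read on 1 array, and so was the low-salt group, whose label names no disease. The labels do not say which chamber was taken or whether the RNA came from 1 animal or several. With 1 array per diet there is no replicate check, no p-value is given, and each difference compares these 2 arrays alone.

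Peroxisome proliferator-activated receptor alpha, encoded by Ppara, is a transcription factor that fatty acids activate. It binds DNA as a pair with a retinoid X receptor (Rxra, Rxrb and Rxrg encode these partners) at direct repeats of a hexamer close to AGGTCA, and in the adult heart it keeps the genes of fatty acid use active. Its targets help to choose the fuel. Pyruvate dehydrogenase kinases such as Pdk4 and Pdk2 phosphorylate and switch off the pyruvate dehydrogenase complex and so hold back glucose oxidation; acyl-CoA thioesterases such as Acot1 in the cytosol and Acot2 in mitochondria split fatty acyl-CoA into free fatty acid and coenzyme A; and Ucp2 and Ucp3 are mitochondrial inner membrane carriers of the uncoupling protein family. That these genes belong together is background knowledge and was not measured here.

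The DNA upstream of 3 of these genes is shown because Pdk4 and Ucp2 read in opposite directions below and because Ucp3 was the only member with the receptor hexamer in its window. Each is the 250 bases before the annotated start, 5′ to 3′ on the gene's strand, from RefSeq's GRCr8 assembly of the rat, which is of another strain; AGGTCA is in capitals. The Pdk4 window is chr4:34568330-34568579 on the minus strand, the Ucp2 window chr1:164251123-164251372 and the Ucp3 window chr1:164227660-164227909, both on the plus strand.
Pdk4: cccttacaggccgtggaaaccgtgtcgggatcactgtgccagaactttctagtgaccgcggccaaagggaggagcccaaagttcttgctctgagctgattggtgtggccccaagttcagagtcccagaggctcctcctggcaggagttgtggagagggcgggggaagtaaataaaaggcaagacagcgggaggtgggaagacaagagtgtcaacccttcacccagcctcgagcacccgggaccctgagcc
Ucp2: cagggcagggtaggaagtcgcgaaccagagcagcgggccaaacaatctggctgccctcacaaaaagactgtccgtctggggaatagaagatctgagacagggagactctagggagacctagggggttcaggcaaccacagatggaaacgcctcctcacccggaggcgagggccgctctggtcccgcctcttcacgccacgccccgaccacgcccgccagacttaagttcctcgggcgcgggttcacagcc
Ucp3: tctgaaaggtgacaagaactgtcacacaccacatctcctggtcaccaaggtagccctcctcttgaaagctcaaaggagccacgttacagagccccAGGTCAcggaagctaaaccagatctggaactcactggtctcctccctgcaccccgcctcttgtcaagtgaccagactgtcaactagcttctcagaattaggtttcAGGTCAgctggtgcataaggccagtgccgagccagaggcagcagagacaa
The hexamer AGGTCA, searched on both strands, was in the windows of 1 of the 9 members and in 14.1% of 33469 promoter windows of the same length. In Ucp3 its copies began at positions -155 and -50 relative to the start. The related hexamer GGGTCA was in no member window and in 11.9% of all windows. The full direct repeat AGGTCANAGGTCA, which contains the hexamer, was likewise in no member window, against 0.0508% of all windows. These matches are descriptions of letters in short windows and say nothing of sites farther away.

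Intensities are the deposited values on a linear scale, and 27.3% and 27.4% of all values were below 0 on the high-salt and low-salt array. A noise floor of 126.4, which 95% of the values below 0 did not exceed in size, therefore stood in for a detection call. The log2 ratio divides the high-salt by the low-salt value, with both raised to that floor; with 1 value under the floor it is a bound, and with both under it there is no ratio. Probe sets of the same gene that were above the floor on both arrays differed in log2 ratio with a pooled SD of 0.22 (231 genes), an error that holds no variation between animals. Of the 9 heart muscle cell markers that reached the floor, among them Actc1 (8364.9 in high salt, 7848.9 in low salt) and Tnnt2 (5576.1 and 6017.5), none differed by 2-fold in its brightest probe set, and the median log2 ratio over those probe sets was -0.10. Other probe sets of the same genes went further, with the second of Myh7 at a log2 ratio of 1.05 and the lowest of Myh6 at -0.94.

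Of the 15 member probe sets, 7 reached the noise floor on at least 1 array. They stood for 5 genes: Rxrg, Pdk2, Pdk4, Acot2 and Ucp2. The high-salt reading was lower for 5 of these 7 and higher for the other 2, both of them Ucp2; over all 1955 probe sets that reached the floor, 54.3% read lower and 45.6% higher. At least 2-fold lower were 2 of the 7, those of Pdk4 and Rxrg, and none was 2-fold higher; of the 1955, 1.69% were at least 2-fold lower and 3.53% at least 2-fold higher. At 1.5-fold, 5 of the 7 were lower, where 9% of all 1955 were. A probe set enters through whichever array read it brighter, so these counts describe the 7 and not all 15. The Pdk4 and Acot2 probe sets among them reached the floor on the low-salt array alone, so they could only read lower. Of the 5 with both values above the floor, Rxrg alone was at least 2-fold lower. Of all 1561 such probe sets, 1.41% were at least 2-fold lower and 3.07% at least 2-fold higher. The median log2 ratio of the 7 was -0.68, and that of all 1955 was -0.04. Ppara, Rxra, Acot1 and Ucp3 stayed under the floor in every probe set of theirs, so these arrays give no direction for them.

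**Figure D1:**
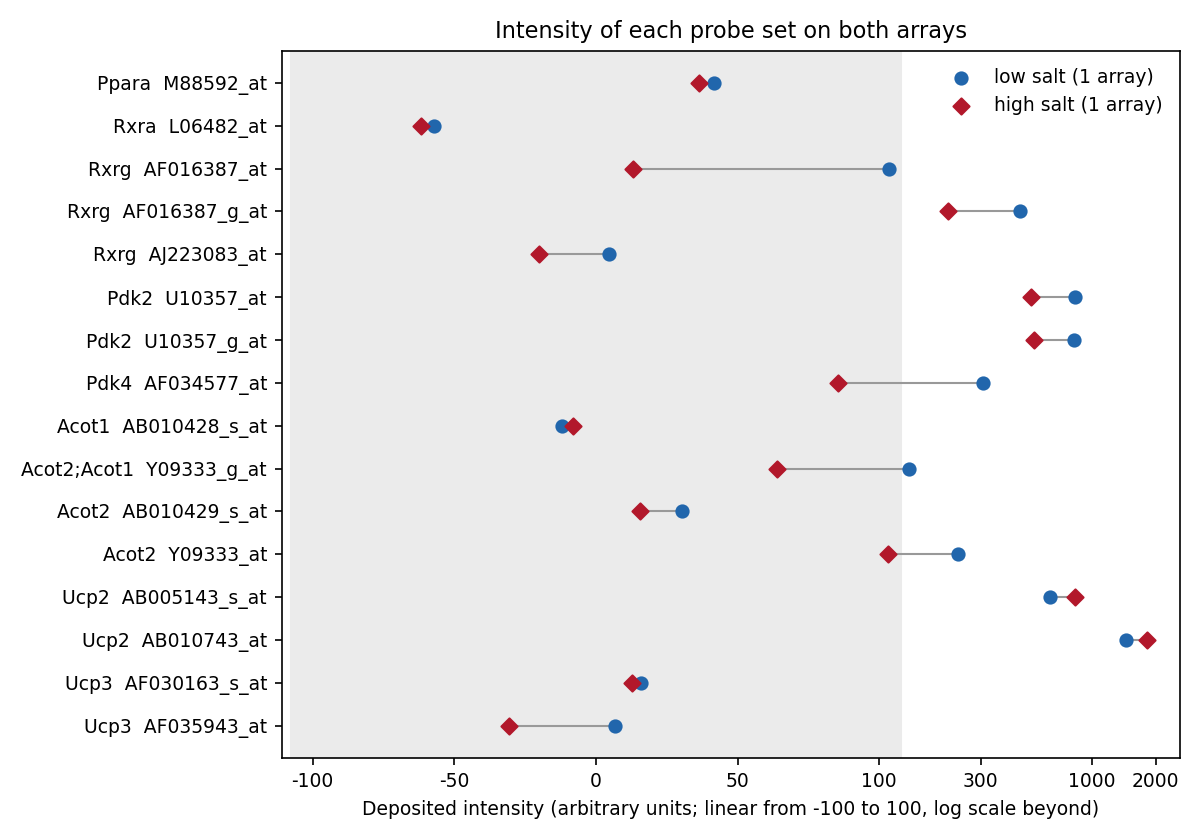
Deposited intensity (arbitrary units, linear around 0 and logarithmic at higher values) of the 15 member probe sets and the shared Acot probe set on the low-salt (blue circles) and high-salt (red diamonds) array, with the band from minus to plus the noise floor of 126.4 in grey. The high-salt points lie to the left for Rxrg, Pdk2, Pdk4 and Acot2 and to the right for Ucp2, while Ppara, Rxra, Acot1 and Ucp3 lie within the band.

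Among the receptors, Rxrg gave the one measured ratio. Rxrg encodes retinoid X receptor gamma, a form found mostly in muscle and brain. Its probe set AF016387_g_at read 210.9 with high salt and 458.0 with low salt, a 2.17-fold lower level (log2 ratio -1.12), the 20th lowest of the 1955 ratios. The other probe set of the same accession, AF016387_at, read 13.0 against 111.4, in the same direction but under the floor on both arrays. AJ223083_at read -20.2 against 4.7, within the noise. The probe set that gave the ratio is of a type (_g_at) that can share sequence with related transcripts, and no probe set of a plain type measured Rxrg.

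For Ppara, the single probe set M88592_at read 36.5 in high salt and 41.8 in low salt, both well under the noise floor. For Rxra, which encodes the retinoid X receptor of most tissues, L06482_at read -61.8 and -57.1, so this probe set gave no positive signal on either array. A reading below the floor does not show that a transcript was absent, since probe sets differ in how well they bind their target. Among 13 other nuclear receptor genes on the array, chosen as partners or relatives of the receptors, 2 reached the floor. The retinoic acid receptor gene Rara read 516.8 against 577.8 and the thyroid hormone receptor gene Thra 118.7 against 179.3, neither past 2-fold. The remaining 11 were dim on both arrays; of the closest relatives, Ppard read 54.7 against 114.4, Pparg 21.3 against 11.4 and Rxrb 2.9 against 20.5. Both coregulator genes present on the array, Ncoa1 and Med1, were under the floor as well.

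Pdk4, the kinase isoform that fasting and fatty acids induce most in muscle and heart, was lower in high salt. Its single probe set, AF034577_at, read 85.6 with high salt and 307.3 with low salt, and because the first lies under the noise floor the level was at least 2.43-fold lower (log2 ratio -1.28). This was the 10th lowest ratio of the 1955 probe sets. With the noise floor, the Rxrg log2 ratio minus that of Pdk4, a bound, was 0.16. The SD of 0.22 between probe sets cannot judge this difference, because Pdk4 was not above the noise floor on both arrays. With the lower floor of 10.9, Pdk4 was at -1.84 and Rxrg at -1.12. At the highest floor tried, 271.2, Pdk4 (-0.18) lay above Rxrg (-0.76) and Pdk2 (-0.68 and -0.62). The order among these members therefore depends on the floor and is not settled.

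Pdk2, the widely expressed kinase isoform, was read by a pair of probe sets on 1 accession. U10357_at read 518.7 in high salt against 833.0 in low salt, a 1.61-fold lower level, and U10357_g_at read 538.0 against 829.4, a 1.54-fold lower level. Their log2 ratios of -0.68 and -0.62 differed by -0.06, less than the SD of 0.22 between probe sets of a gene, but they share a target and are not independent. Of the 1955 probe sets, 5.83% had a ratio lower than the first and 7.47% lower than the second. With the noise floor, the Pdk4 log2 ratio, a bound, differed from those of Pdk2 by -0.60 and -0.66. With the floor of 271.2 the Pdk4 ratio was -0.18, above the Pdk2 ratios of -0.68 and -0.62. The direction of this difference therefore depends on the floor. The SD between probe sets was taken from those above the noise floor on both arrays. Pdk4 was not, so that SD cannot be used to judge these differences.

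The rest of the pyruvate dehydrogenase system was described from a list that leaves out the members. Of its 9 genes on the array 5 reached the floor, none was 2-fold lower or higher, and the median log2 ratio was -0.23. Pdk1, another kinase of the complex, read 248.3 against 323.3, a 1.30-fold lower level. Among subunits of the complex, Pdha1 (catalytic E1 alpha) read 1588.1 against 1575.9, Pdhb (E1 beta) 425.8 against 562.3 and Dlat (E2) 1067.8 against 897.0. Mpc1, a subunit of the mitochondrial pyruvate carrier, read 2786.7 against 3257.2. The phosphatase genes that oppose the kinases, Pdp1 (109.4 against 115.5) and Pdp2 (2.1 against 70.5), were under the floor.

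Acot2 was lower in high salt in its brightest probe set. Y09333_at read 110.3 with high salt and 234.8 with low salt, at least 1.86-fold lower against the floor (log2 ratio -0.89). A second Acot2 probe set, AB010429_s_at, read 15.4 against 30.3, under the floor on both arrays. The probe set annotated to both Acot2 and Acot1, Y09333_g_at, read 63.8 against 138.2. That is at least 1.09-fold lower against the floor. Acot1 by itself, in AB010428_s_at, read -8.2 and -11.8 and gave no signal. Acot1 and Acot2 are close paralogs that lie near each other on 1 chromosome, so the readings of Y09333_g_at cannot be assigned to either gene. Of the other thioesterase and uncoupling protein genes listed, 3 were on the array and Acot7 alone reached the floor, at 202.0 against 306.0, a 1.51-fold lower level.

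Ucp2 was the member that read higher in high salt, in both of its probe sets. AB010743_at read 1825.2 with high salt and 1446.8 with low salt, a 1.26-fold higher level (log2 ratio 0.34). AB005143_s_at read 832.3 against 640.3, a 1.30-fold higher level (log2 ratio 0.38). These log2 ratios differed by -0.04, less than the SD of 0.22 between probe sets, which holds no variation between animals. Of the 1955 probe sets, 16.7% and 15.0% had a ratio as high or higher. With the noise floor, the log2 ratio of Pdk4, a bound, minus that of AB010743_at was -1.62, a 3.07-fold difference in balance between the arrays. Pdk4 had the lowest member ratio with that floor, so this pair shows a wide contrast. Its size depends on the floor. With the floor of 271.2, Pdk4 was at -0.18 and AB010743_at at 0.34, still in opposite directions. Ucp3, the muscle member of the family, read 12.7 against 15.9 in AF030163_s_at and -30.7 against 6.8 in AF035943_at, all under the floor. Ucp3 lies near Ucp2 on the same chromosome. Ucp1, the uncoupling protein of brown fat, read 25.6 against 26.5.

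**Figure D2:**
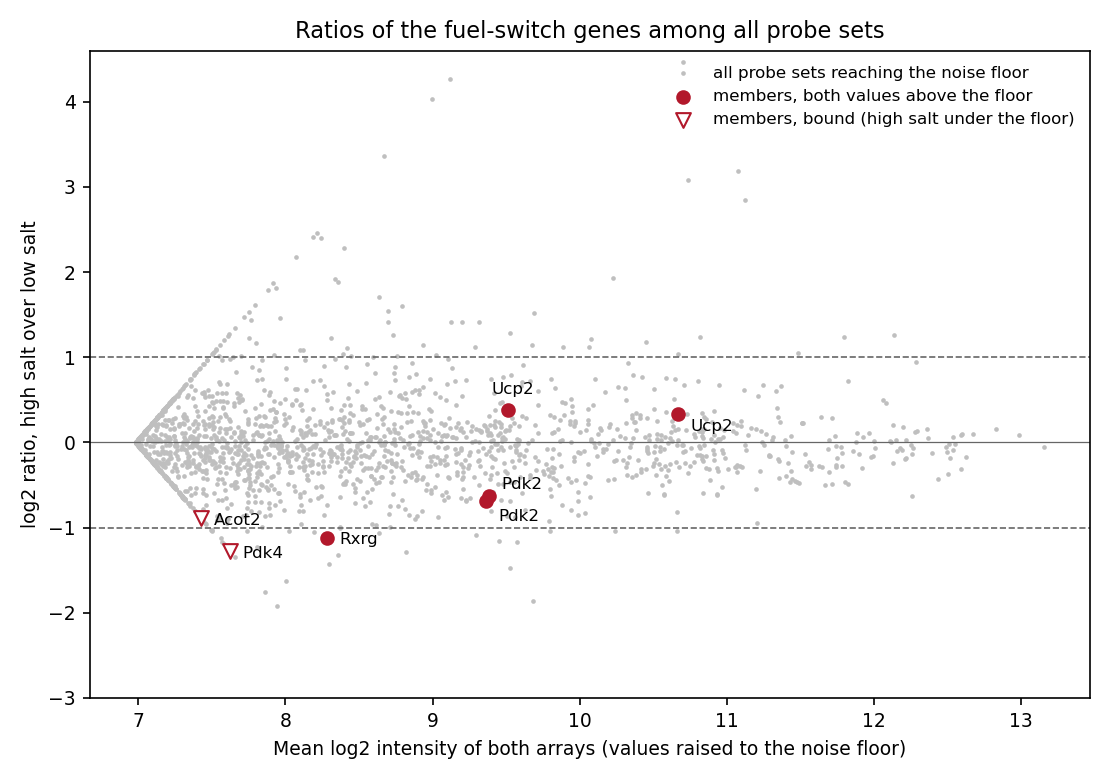
Log2 ratio (high-salt over low-salt array) against the mean log2 intensity of both arrays, with values raised to the noise floor, for the 1955 probe sets that reached the floor (grey) and the 7 member probe sets (red; open triangles are bounds). Dashed lines mark 2-fold; Pdk4 and Rxrg lie under the lower line, Acot2 and Pdk2 between it and 0, and Ucp2 above 0.

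Ucp2 is also expressed in macrophages and other leukocytes, and tissue arrays cannot tell fewer cells of a type from less RNA per cell. Of 9 leukocyte markers on the array, 3 reached the floor: Lyz2 read 458.6 against 130.4, Cd14 149.1 against 128.7 and Cd74 507.3 against 1144.4. The sum of the 9, with values below 0 taken as 0 here and in the sums that follow, was 1300.7 in high salt and 1538.8 in low salt, with Ptprc, which all leukocytes share, at 43.3 and 30.8. Cd74 was the largest term of both sums, and of the 3 that reached the floor it alone read lower in high salt. The sums therefore mostly follow Cd74 and do not give a common direction for leukocytes. The 3 red blood cell markers summed to 7944.9 and 3134.8, each at least 2-fold higher in high salt in its brightest probe set: the globin gene Hbb was 2.40-fold, Alas2, of haem synthesis, at least 5.52-fold and the anion exchanger gene Slc4a1 at least 2.09-fold higher. Another probe set of Slc4a1 had a log2 ratio of -0.05. The 9 fibroblast markers summed to 4644.1 and 3982.3; 7 reached the floor and none of these passed 2-fold. All 3 endothelial markers on the array were under the floor, with sums of 175.4 and 134.6. Their part in the Ucp2 reading was not tested. Adipocyte markers, whose cells also hold many of these transcripts, summed to 1671.6 in high salt and 1859.4 in low salt over 8 genes, and 3 of the 8 reached the floor, with a median log2 ratio of -0.35. Fabp4 read 613.4 against 785.0 and Cidea 418.5 against 531.6, in the same direction as Pdk4, Acot2 and Rxrg, and Lep read 531.1 against 453.6. Plin1 was below 0 on both arrays and Pparg, Cfd, Lipe and Ucp1 were under the floor. Of 10 skeletal muscle markers, 8 were under the floor on both arrays; Myh1 (285.8 against 345.0) and Myh3 (305.0 against 336.5) reached it, and the sums were 746.4 and 903.7. The part of fat and skeletal muscle in the Pdk4, Acot2 and Rxrg readings was not tested.

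Other known target genes of the receptor were read for comparison, 1 probe set a gene. Of 36 listed, 27 were on the array and 22 reached the floor; 7 of these were at least 2-fold lower and none 2-fold higher, where 1.9% of all 1211 genes that reached the floor were at least 2-fold lower and 3.55% higher. A ratio below 1 was found for 21 of the 22, where 54.5% of the 1211 genes had one, and the median log2 ratio was -0.65 against -0.04 over all. The 7 were Ech1, Eci1, Acadvl, Cpt2, Decr1, Acaa2 and Slc25a20, enzymes and the carnitine carrier of fatty acid oxidation. Slc25a20 read 122.7 in high salt, under the floor, and 259 in low salt, so its ratio is a bound. Acsl1, which activates long-chain fatty acids, read 350.3 against 559.2, and the fatty acid binding protein gene Fabp3 3932.1 against 6103.4. Lpl, the lipoprotein lipase gene, read 2821.9 against 3098.2, and the mitochondrial import gene Cpt1b 1152.8 against 1410.7, both closer to equal. Plin2, which coats lipid droplets, was the 1 with a ratio above 1, at 138.5 against 112.1. Its low-salt value lies under the floor, so this ratio too is a bound. The list was drawn up with earlier results of these arrays known and so is not independent evidence of its direction.

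**Figure D3:**
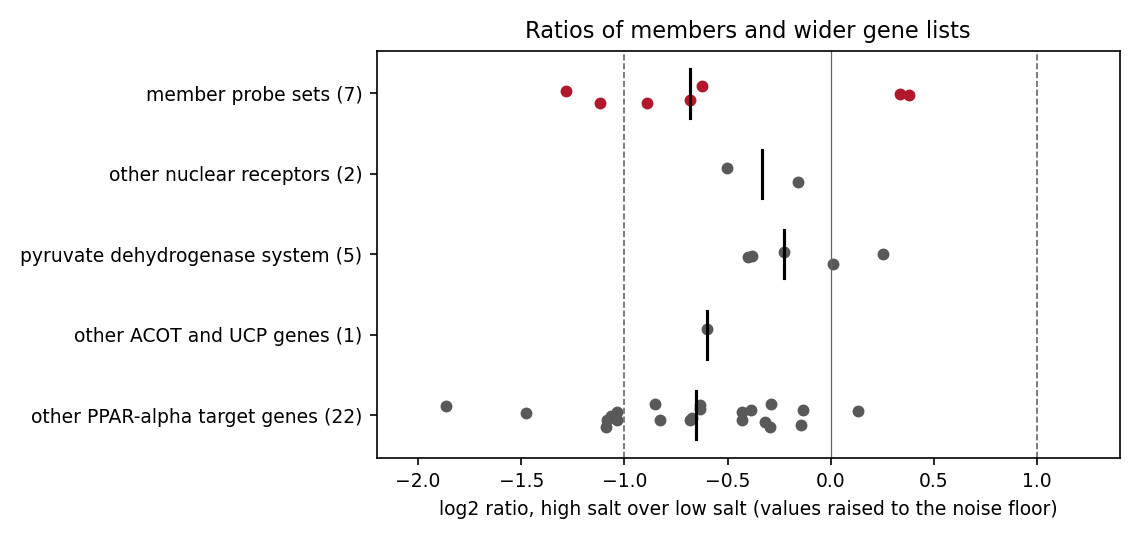
Log2 ratio (high-salt over low-salt array), with values raised to the noise floor, for the 7 member probe sets (red) and for the genes of 4 wider lists, 1 probe set a gene (grey), with black bars at the medians and the number of points in brackets. The member points and the other receptor targets lie mostly below 0, with Ucp2 above it.

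The choice of floor set the size of the bounds. With a floor of 271.2, the 99th percentile of the size of values below 0, the Pdk4 log2 ratio shrank from -1.28 to -0.18, because the low-salt reading of 307.3 lies just above it. With a lower floor of 10.9 it was -1.84. Scaling mattered less: under median scaling, quantile normalization and loess, Pdk4 stayed between -1.28 and -1.20 and Rxrg between -1.10 and -1.05.

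**Figure D4:**
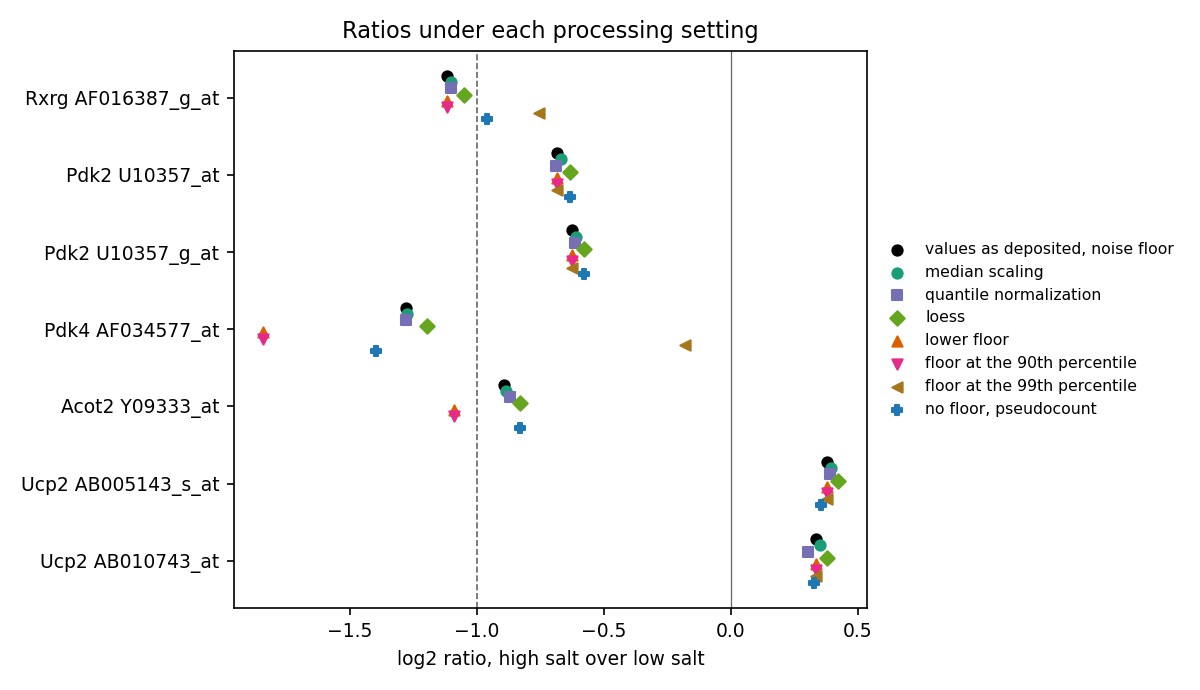
Log2 ratio (high-salt over low-salt array) of the 7 measured member probe sets under each processing setting (symbols), with a dashed line at 2-fold lower. The Ucp2 points lie above 0 and the Rxrg, Pdk2, Pdk4 and Acot2 points below 0, and the floor moves Pdk4 the farthest. Floors and the pseudocount cannot change a sign, so only the scalings could have moved a point across 0.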

How the data were processed

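Biotin-labelled cRNA was made from total RNA, per the labels' protocols, and hybridised to 1-colour arrays, 1 for each diet. The authors deposited 1 intensity per probe set on a linear scale; no source used here names the software, its settings or detection calls. Between arrays the 2% trimmed mean differed by 0.025%, so the values were used as deposited. Each array held 8799 probe sets, of which 59 were controls. Gene symbols came from the platform's annotation of 2016: of 8740, 7006 had 1 symbol, 308 several and 1426 none, and the 15 members kept their symbols in RefSeq's GRCr8 gene table. For wider lists each gene was read from its probe set with the highest mean intensity. Every member probe set was named; from each wider gene list, marker lists aside, the text gives counts, genes past 2-fold and up to 4 of the brightest others; further genes (Pdk1, Acsl1, Cpt1b and Plin2, dim receptors and phosphatases, cell markers) were chosen after their values were seen. The members, lists, noise floor and alternatives were chosen with earlier results of these data known. With 1 array per diet no test was run, and the number of arrays limits the precision. The ratio and motif steps were tested on simulated data. In the ratio test, changes were planted only in probe sets with brighter low-salt values than Pdk4 and Rxrg, so it does not cover probe sets as dim as these. Alternatives were median scaling, quantile normalization, loess (span 0.4), floors at 10.9 (the 40th percentile of all values) and at the 90th and 99th percentiles of values below 0, a pseudocount of 50 without a floor, thresholds of 1.5-fold and 3-fold, and other choices of probe sets. Python 3.11.15, numpy 2.4.6, pandas 2.3.3, statsmodels 0.14.6 and matplotlib 3.10.9 were used.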

Additional observations from a re-analysis of the deposited data

How the results depend on the processing

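The count of member probe sets at least 2-fold lower, 2 of 7, was also 2, again Pdk4 and Rxrg AF016387_g_at, under median scaling, quantile normalization, loess and with the shared Acot probe set added. Over all probe sets, 32 of 1955, 33 of 1951 and 25 of 1955 were at least 2-fold lower under those scalings, in that order. With the pseudocount of 50 and no floor it was 2 of 15, where 1.09% of all probe sets were called lower, but the called ones were Pdk4 (-1.40) and the dim Rxrg probe set AF016387_at (-1.36), while AF016387_g_at was at -0.96. It was 3 of 8 with the floor at the 90th percentile of values below 0 (84.9), where 2.21% were called, 4 of 11 at the lower floor of 10.9, where 7.62% of all probe sets were called lower, and 0 of 6 with the floor at the 99th percentile (271.2), where 0.912% were. It was 5 at a 1.5-fold threshold, where 9% of all were called lower, and 0 at 3-fold, where 0.205% were. Without probe set types that can share sequence it was 1 of 4, since Rxrg is then not measured. The share over all such probe sets was not computed. None was called higher under these settings. Where computed, the share of all probe sets called higher ran from 1.07% at the 3-fold threshold to 8.75% at the 1.5-fold threshold. All 7 log2 ratios kept their sign under median scaling, quantile normalization and loess. A floor or a pseudocount cannot reverse a sign, so those settings bear only on the size of a ratio. The 99th percentile floor gave no value for Acot2, and the Acot2 ratio reached 2-fold at the floors of 84.9 and 10.9. Rxrg AF016387_g_at was -0.76 with the 99th percentile floor. The scalings moved the median over all probe sets by at most 0.05. No paired analysis was possible because each diet has 1 array. Signal over background limits Ppara, Rxra, Acot1 and Ucp3, for which no level could be read.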
